A study of Homo sapiens with 15 samples.

Results

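The 8 genes described here encode ion channels and gap junction proteins of working myocardium: the potassium channel subunits KCNQ1, KCNE1, KCNH2, KCNJ2 and KCND3, and the connexins GJA1, GJA5 and GJC1. They were chosen by gene symbol, and they are 8 of the 60605 genes in the deposited table. The data are 15 bulk RNA-seq libraries made from the human embryonic stem cell line H1 while it was differentiated to the cardiac lineage. All cells received CHIR99021, an activator of WNT signalling, on Day 0 and insulin on Day 1, and a single library was made on each of Days 0, 1 and 2 before 3 arms were set up. Each arm was then sampled once on Days 3, 5, 7 and 10. NP-ctrl cells were not passaged and had no further inducer, NP-IWP2 cells were not passaged and were treated with the WNT secretion inhibitor IWP2, and passaged cells were dissociated on Day 2 with EDTA and replated on Matrigel without a WNT inhibitor. According to the study, a ROCK inhibitor, which aids survival of dissociated cells, was used in every differentiation experiment after its survival tests. Its RNA-seq is reported after those tests, with passaged cells split on replating, and the labels name neither the inhibitor nor the split. In these libraries the parts of the inhibitor and the split were not tested separately from dissociation. In other experiments the study reports a cardiac fate for most dissociated cells with or without the inhibitor. It also reports the effect of passaging at various split ratios, among them replating of the same number of cells. Each group of 1 arm and 1 day is a single library from 1 series of cultures of 1 cell line, so no value has a biological replicate.

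Heart muscle cells repolarise through several potassium currents. KCNQ1 forms the pore of the slow delayed rectifier (IKs) and KCNE1 is its regulatory subunit, KCNH2 (hERG) forms the rapid delayed rectifier (IKr), KCNJ2 (Kir2.1) carries the inward rectifier (IK1) that holds the resting potential of working myocytes, and KCND3 (Kv4.3) carries transient outward current (Ito). Neighbouring cells are coupled through gap junctions built from connexins. GJA1 (connexin 43) is the main connexin of ventricular working myocardium and is also made by many non-cardiac cells, GJA5 (connexin 40) is typical of atrial and conduction cells and of arterial endothelium, and GJC1 (connexin 45) is the connexin of the early heart tube and the nodes.

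The core promoters of GJA1 and KCNH2 are shown because both genes were abundant enough to be followed in every library and had fitted slopes of opposite sign, and that of KCNJ2 because it lies next to an antisense gene whose counts are given beside it. Each run is the 250 bases before a RefSeq transcription start on GRCh38.p14, written 5′ to 3′ on the strand of the gene, with matches to the motifs named after it in capitals.
GJA1, chr6:121435396-121435645, plus strand: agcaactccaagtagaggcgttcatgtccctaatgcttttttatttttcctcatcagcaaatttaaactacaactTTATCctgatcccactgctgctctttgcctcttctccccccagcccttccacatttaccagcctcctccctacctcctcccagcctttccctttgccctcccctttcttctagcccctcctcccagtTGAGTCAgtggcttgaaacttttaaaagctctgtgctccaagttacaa
KCNH2, chr7:150978322-150978571, minus strand: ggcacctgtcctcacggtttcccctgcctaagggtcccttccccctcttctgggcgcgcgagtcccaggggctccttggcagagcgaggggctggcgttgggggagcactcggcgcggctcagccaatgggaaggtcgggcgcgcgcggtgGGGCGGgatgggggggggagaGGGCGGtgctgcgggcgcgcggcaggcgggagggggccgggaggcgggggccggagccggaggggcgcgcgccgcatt
KCNJ2, chr17:70169282-70169531, plus strand: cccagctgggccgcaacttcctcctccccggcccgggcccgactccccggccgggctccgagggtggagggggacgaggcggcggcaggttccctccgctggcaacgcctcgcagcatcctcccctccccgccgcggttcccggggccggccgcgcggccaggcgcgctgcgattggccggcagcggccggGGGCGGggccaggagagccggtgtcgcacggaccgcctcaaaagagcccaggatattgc
Both strands were searched for the letters of 7 motifs, which were TNAAGTG for the cardiac factor NKX2-5, GGTGTG for T-box factors, GATAA for GATA factors, TATAAA for the TATA box, CTTTGA for the TCF/LEF factors of WNT signalling, TGANTCA for AP-1 and GGGCGG for SP/KLF factors, with no overlap between matches in these 3 windows. The GJA1 window held TGANTCA at position -48 and GATAA on the opposite strand at position -175, counted from the start. KCNH2 has 5 starts in the table, and the window shown is that of the start at the 5′ end of the gene in the authors' table, while the other windows hold other matches. The KCNH2 window shown held GGGCGG at positions -99 and -78, and the KCNJ2 window held it at position -59. The RefSeq start used lay 859 bases inside the gene of the authors' table for KCNJ2 and 51 bases inside it for GJA1. The KCNJ2 window and the TGANTCA match of GJA1 therefore fell inside those genes. The KCNJ2 window also overlapped the antisense gene, KCNJ2-AS1. Of the 35116 promoters of the RefSeq table, 6.57% held the AP-1 letters, 20.4% the GATA letters and 42.6% the SP/KLF letters in the same 250 bases, against 8.73% for NKX2-5, 14.2% for T-box, 10.7% for the TATA box and 11.2% for TCF/LEF. Entries were found for 6 of the 8 genes, and not for KCNQ1 and GJC1. These matches describe letters in a window and carry no evidence of binding.

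In the coordinates of the authors' table on GRCh38, KCNQ1 lies at chr11:2444684-2849105, KCNE1 at chr21:34446688-34512214, KCNH2 at chr7:150944961-150978321, KCNJ2 at chr17:70168673-70180044, KCND3 at chr1:111770662-111989668, GJA1 at chr6:121435595-121449727, GJA5 at chr1:147756199-147773362 and GJC1 at chr17:44798448-44830816. All are protein-coding genes, and reads were counted over the exons of each gene, UTRs included.

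Total counts per library ranged from 13254723 to 20250115, with a median of 15269132, and mitochondrial genes took 1.53% of counts in the passaged library of Day 3 and 10.3% in that of Day 10, the lowest and highest shares. Levels are given in FPKM, which scales counts to exonic length and library total. For the 8 genes, 3 counts corresponded to between 0.017 and 0.0688 FPKM depending on gene and library. Ratios between single libraries carry exact 95% Clopper-Pearson intervals that cover counting error only, because each arm and day has 1 library. Reads without molecular identifiers can be PCR copies of one another, so these intervals can be too narrow even for counting error. Repetition over days was used in fits of edgeR to the 12 libraries of Days 3 to 10. In these fits 21148 genes were tested, 6 of the 8 among them, because KCNE1 and KCND3 did not reach 1 FPKM in any library. For arm effects the spread is that of the arm differences between days in a single series of cultures, so a difference that grows with day adds to it. For slopes the spread is the deviation from a straight line on the log scale. The p-values were adjusted by the method of Benjamini and Hochberg over all genes tested. Genes at an adjusted p under 0.05 were called.

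KCNQ1 was higher on Day 10 than on Day 3 in the 3 arms, with a called slope in NP-IWP2 and passaged cells. It reached its highest level in passaged cells on Day 10. In the shared libraries its level was 1.07 FPKM on Day 0, 1.30 on Day 1 and 0.63 on Day 2, and on Day 3 it was between 0.29 and 0.43 FPKM in the 3 arms. In NP-ctrl cells it was 0.51, 0.79 and 1.01 FPKM on Days 5, 7 and 10. In NP-IWP2 cells it was 0.40, 1.18 and 2.24 FPKM on the same days. In passaged cells it was 0.55, 2.19 and 4.42 FPKM, from 37, 145 and 297 counts. The arms overlapped within counting error on Days 3 and 5 and were in the order NP-ctrl, NP-IWP2, passaged on Days 7 and 10. By Day 10 passaged cells were at 4.38 times the level of NP-ctrl (interval 3.31 to 5.88) and 1.97 times NP-IWP2 (1.62 to 2.40), and NP-IWP2 was 2.22 times NP-ctrl (1.64 to 3.05).

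The fitted slope of KCNQ1 on day was 0.24 log2 units per day in NP-ctrl (SE 0.086, edgeR adjusted p = 0.121), 0.45 in NP-IWP2 (SE 0.084, adjusted p = 0.0145) and 0.55 after passaging (SE 0.084, adjusted p = 0.00414). The last corresponds to a 14.6-fold rise over the 7 days from Day 3 to Day 10. Without Day 10 the slope in passaged cells was 0.64 with an adjusted p of 0.108, within a range of 1.14e-07 to 0.108 over 8 alternatives. In NP-IWP2 cells the adjusted p passed 0.05 without Day 3 (0.0735), without Day 7 (0.0682) and without Day 10 (0.202), within a range of 6.82e-05 to 0.202. The difference between the slopes of passaged and NP-ctrl cells was 0.31 (SE 0.12) and was not called (adjusted p = 0.267). KCNQ1OT1, a long non-coding RNA transcribed from the opposite strand inside KCNQ1, shares 121 of the 4450 exonic bases of KCNQ1 in GENCODE 44. Its counts on Day 10 were 2190 in NP-ctrl, 1142 in NP-IWP2 and 526 after passaging, the reverse of the order of KCNQ1. Whether strand was used in counting is not given in the sources used here, and the share of reads the genes exchange was not tested.

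KCNE1, the partner of KCNQ1 in IKs, was low in every library. It had at most 4 counts in each of the 6 libraries of Days 0 to 3. On Days 5, 7 and 10 its level was 0.33, 0.62 and 0.33 FPKM in NP-ctrl, 0.33, 0.36 and 0.25 with IWP2, and 0.11, 0.32 and 0.21 in passaged cells, from 12 to 59 counts. The libraries of Days 5 to 10 therefore all stood above those of the earlier days, with the highest value in NP-ctrl on Day 7. On Day 7 the passaged level was 0.524 times NP-ctrl (interval 0.335 to 0.81), and on Day 10 the interval of that ratio included 1 (0.636, 0.355 to 1.12). KCNE1B, an annotated copy of KCNE1, also on chromosome 21, to which its reads could have been assigned, had 0 to 17 counts per library. Only without the filter on low values was KCNE1 fitted, and its arm effect of passaged against NP-ctrl was then -0.71 (SE 0.49, edgeR adjusted p = 0.712).

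The ratio of KCNE1 to KCNQ1 was lowest in passaged cells on Days 5, 7 and 10. On Day 7 it was 0.787 in NP-ctrl (interval 0.526 to 1.18), 0.307 in NP-IWP2 (0.207 to 0.449) and 0.148 after passaging (0.0993 to 0.215). On Day 10 it was 0.327 in NP-ctrl (0.206 to 0.511), 0.109 in NP-IWP2 (0.0704 to 0.164) and 0.0475 after passaging (0.0296 to 0.0726). On Day 10 the interval of NP-ctrl overlapped neither of the others, and those of NP-IWP2 and passaged cells overlapped at their ends. With the counts of KCNE1B added, an alternative chosen after seeing the data, the ratios kept this order and were 0.987 in NP-ctrl, 0.38 in NP-IWP2 and 0.22 after passaging on Day 7. Ratios between genes rest on the scaling by length. The library kit named in the study's methods is a long-read kit whereas the processing tools are for short reads, and on counts alone the Day 10 ratios were 0.533, 0.178 and 0.0774.

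KCNH2 was the most abundant of the 5 potassium channel genes in 15 of 15 libraries, and its highest levels were in passaged cells on Days 7 and 10. The interval of its ratio to KCNQ1 included 1 on Day 1 (1.06, 0.834 to 1.37) and on Day 2 (1.29, 0.933 to 1.81). Before the arms were divided the level of KCNH2 was 3.65 FPKM on Day 0, 1.38 on Day 1 and 0.81 on Day 2. In NP-ctrl cells it was 4.01, 3.37, 4.85 and 5.96 FPKM on Days 3, 5, 7 and 10. In NP-IWP2 cells the corresponding levels were 2.08, 6.39, 6.72 and 6.33 FPKM. In passaged cells they were 4.01, 6.82, 12.8 and 13.5 FPKM. All 12 libraries of the arms exceeded the Day 2 library, and passaged and NP-ctrl cells were level on Day 3 (ratio 0.998, interval 0.871 to 1.14). By Day 10 passaged cells were at 2.27 times NP-ctrl (2.06 to 2.50) and 2.13 times NP-IWP2 (1.95 to 2.34), whereas the interval for NP-IWP2 against NP-ctrl included 1 (1.06, 0.952 to 1.19). These sizes depended on scaling. On TPM the ratio of NP-IWP2 to NP-ctrl was 1.2 (1.07 to 1.34) and that of passaged to NP-IWP2 was 1.75. On library sizes scaled by TMM, passaged cells were at 2.48 times NP-IWP2 and 2.67 times NP-ctrl.

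The arm effect of KCNH2 over the 4 days was 0.92 log2 units for passaged against NP-ctrl (SE 0.30, edgeR adjusted p = 0.114) and 0.82 against NP-IWP2 (SE 0.30, adjusted p = 0.262). Its slope in passaged cells was 0.30 per day (SE 0.090, adjusted p = 0.0537). None of these was called. Without Day 3, the day on which passaged and NP-ctrl cells were level, the effect against NP-ctrl was 1.32 (SE 0.23) with an adjusted p of 0.00571, within a range of 0.00303 to 0.548 over 9 alternatives. The slope in passaged cells was called by limma, by DESeq2 and without the filter on low values, with adjusted p from 0.007 to 0.137 over 8 alternatives. The ratio of KCNH2 to KCNQ1 on Day 10 was 5.91 in NP-ctrl (4.52 to 7.84), 2.82 in NP-IWP2 (2.37 to 3.38) and 3.06 after passaging (2.70 to 3.48).

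KCNJ2 was low in every library but that of passaged cells on Day 5. There it had 2.97 FPKM from 253 counts, against 0.18 FPKM in NP-ctrl (16 counts) and 0.23 in NP-IWP2 (18 counts) on the same day. The ratios were 16.2 (interval 9.80 to 28.8) and 13 (8.07 to 22.3). In passaged cells KCNJ2 had 0 counts on Day 3, set to 3 counts for ratios, and was 0.56 FPKM on Day 7 (47 counts) and 0.12 on Day 10 (10 counts). With 3 counts set for Day 3, the Day 5 level was 75.6-fold higher than that of Day 3, a value without an interval. In the 8 NP-ctrl and NP-IWP2 libraries it lay between 0.05 and 0.31 FPKM, from 4 to 23 counts, and in the shared libraries between 0.03 and 0.15. On Day 10 passaged cells were thus at 0.385 times NP-ctrl (0.163 to 0.84), the opposite side from Days 5 and 7. KCNJ2 passed the filter on low values through the passaged library of Day 5 alone, so its fits are given as a description. The arm effect against NP-ctrl was 0.82 (SE 1.07, edgeR adjusted p = 0.745) and was -0.72 (adjusted p = 0.782) without Day 5, within a range of 0.199 to 0.967 over 9 alternatives. The slope in passaged cells was -0.46 (SE 0.48, adjusted p = 0.572), and over 8 alternatives the adjusted p lay between 0.00697, for a slope of -0.90 without Day 3 that starts from the Day 5 library, and 0.813. KCNJ2-AS1, which starts close to KCNJ2 on the opposite strand and shares 185 of its 5576 exonic bases, also had its highest count in the passaged library of Day 5, with 38 counts, and had 21 in that of Day 10 and at most 13 elsewhere.

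KCND3 was higher in NP-ctrl than in the other arms on Days 7 and 10. Its level in NP-ctrl was 0.29 FPKM on Days 5 and 7 and 0.63 on Day 10, from 36, 31 and 68 counts. In NP-IWP2 cells it was 0.12, 0.15 and 0.21 FPKM on these days, and in passaged cells 0.11, 0.02 and 0.07. At most 3 counts were found in 6 of the 15 libraries, and the rest were under 1 FPKM. The passaged level on Day 10 was 0.117 times NP-ctrl (9 against 68 counts, interval 0.0514 to 0.236), and NP-IWP2 was 0.337 times NP-ctrl (0.208 to 0.534). KCND3 was fitted only without the filter on low values, where its arm effect of passaged against NP-ctrl was -2.05 (SE 0.58, edgeR adjusted p = 0.0147). In that setting 2571 of 41457 genes were called, against 941 of 21148 with the filter. The passaged values rested on 3, 14, 2 and 9 counts on Days 3, 5, 7 and 10, so this call is given as a description. KCND3 overlaps DDX20 on the opposite strand in GENCODE 44, where it has 19393 exonic bases against 8027 in the authors' table.

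**Figure D1:**
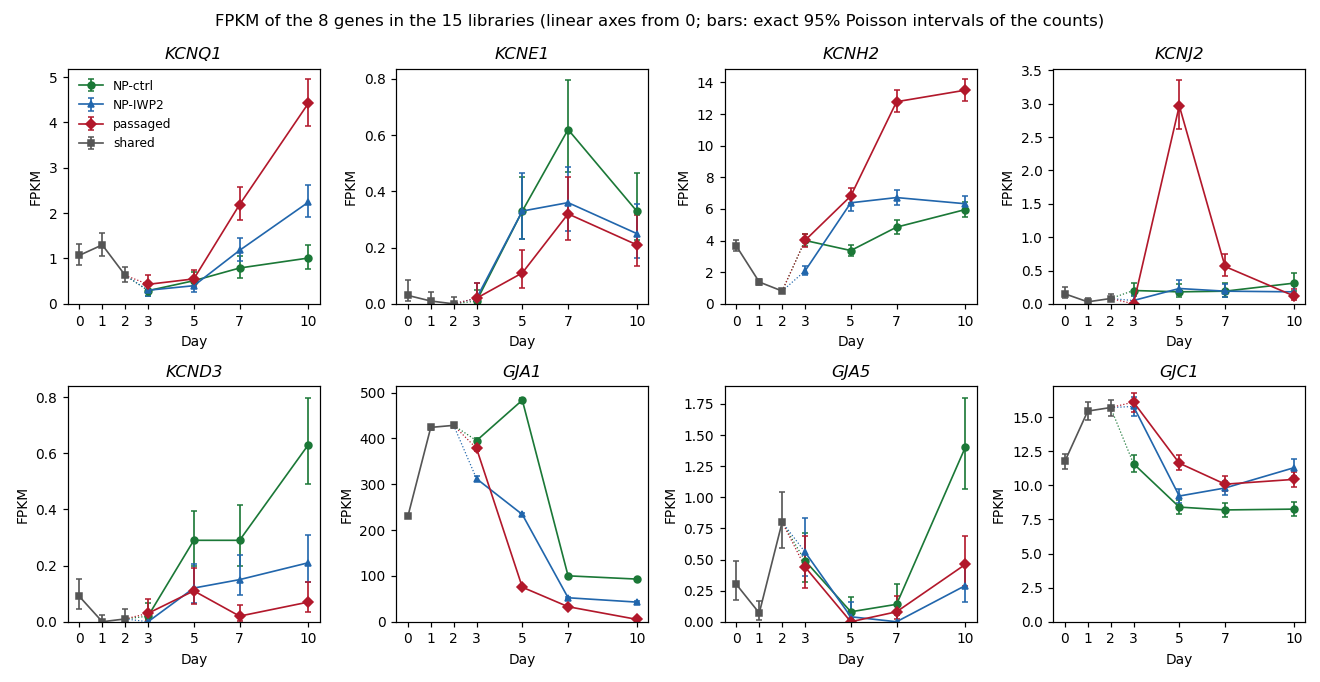
FPKM (vertical axes, linear and starting at 0, with a scale for each gene) against day in the shared, NP-ctrl, NP-IWP2 and passaged libraries, with exact 95% Poisson intervals of the counts as bars and dotted lines from Day 2 to Day 3 of each arm. KCNQ1 and KCNH2 ended highest in passaged cells at 4.42 and 13.5 FPKM, GJA1 ended lowest there at 5.21 FPKM, and KCNJ2 had 1 high point of 2.97 FPKM on Day 5.

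GJA1 was the most abundant of the 8 genes in 14 of 15 libraries. It was lower on Day 10 than on Day 3 in the 3 arms, with a called slope in NP-IWP2 and passaged cells. It ranked 51st by FPKM among all genes on Day 2 and 7261st in passaged cells on Day 10. In the shared libraries it was 230.0 FPKM on Day 0, 424 on Day 1 and 428 on Day 2. In NP-ctrl cells it was 395, 483, 100.2 and 93.1 FPKM on Days 3, 5, 7 and 10. In NP-IWP2 cells it was 312, 234, 52.3 and 42.9 FPKM on these days. In passaged cells it was 378, 75.4, 32.8 and 5.21 FPKM, the last from 269 counts. Passaged cells had the lowest level of the 3 arms on Days 5, 7 and 10, and NP-ctrl cells the highest. On Day 10 the passaged level was 0.056 times NP-ctrl (interval 0.0493 to 0.0633) and 0.122 times NP-IWP2 (0.107 to 0.138), and NP-IWP2 was 0.46 times NP-ctrl (0.438 to 0.485). In bulk samples, fewer cells that carry a transcript and less of it in each cell cannot be told apart.

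The slope of GJA1 was -0.37 log2 units per day in NP-ctrl (SE 0.11, edgeR adjusted p = 0.0744), -0.44 in NP-IWP2 (SE 0.11, adjusted p = 0.0318) and -0.83 after passaging (SE 0.11, adjusted p = 0.00297). In passaged cells the fitted slope leaves 0.0182 of the Day 3 level on Day 10. Without Day 10 that slope was -0.83 with an adjusted p of 0.0868, within a range of 5.04e-13 to 0.0868 over 8 alternatives. In NP-IWP2 the slope was not called without Day 3 (adjusted p = 0.0925), Day 7 (0.0916) or Day 10 (0.251), within a range of 0.000392 to 0.251. The difference in slope between passaged and NP-ctrl cells was -0.45 (SE 0.14), with an unadjusted edgeR p of 0.0114 and an adjusted p of 0.192. The arm effect of passaged against NP-ctrl was -1.92 (SE 0.51, adjusted p = 0.0583) and was not called. Without Day 3 it was -2.61 (SE 0.42, adjusted p = 0.00415), and over 9 alternatives the adjusted p lay between 3.72e-08 and 0.25, with a negative effect in each.

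GJC1 stayed between 8.20 and 16.1 FPKM in the 15 libraries. Its level was 11.8, 15.4 and 15.7 FPKM on Days 0, 1 and 2. In NP-ctrl cells it was 11.6 FPKM on Day 3 and 8.41, 8.20 and 8.26 on Days 5, 7 and 10. In NP-IWP2 cells it was 15.8, 9.22, 9.81 and 11.3 FPKM, and in passaged cells 16.1, 11.6, 10.1 and 10.4. Each library had between 947 and 2772 counts. NP-ctrl cells had the lowest level of the 3 arms on each of the 4 days, except that on TPM the ratio of NP-IWP2 to NP-ctrl on Day 5 was 0.966, and passaged cells exceeded them by 1.23 to 1.39 times. The arm effect of passaged against NP-ctrl was 0.45 (SE 0.13, edgeR adjusted p = 0.0742) and was not called, and 0.14 against NP-IWP2 (SE 0.13, adjusted p = 0.70). On Day 10 the ratio of passaged to NP-IWP2 cells was 0.925 (interval 0.86 to 0.995) on FPKM and 1.07 on library sizes scaled by TMM, so its direction is not settled. Slopes on day were between -0.069 and -0.044 in the 3 arms, none called.

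GJA5 was near the detection limit on Days 1, 5 and 7 and higher on Days 2, 3 and 10. It had 0.30 FPKM on Day 0 (17 counts), 0.07 on Day 1 (4 counts) and 0.80 on Day 2 (53 counts), and 0.49, 0.56 and 0.44 FPKM on Day 3 in the order NP-ctrl, NP-IWP2, passaged. On Days 5 and 7 it had 0 to 6 counts in the 6 libraries of the arms. On Day 10 it was 1.40 FPKM in NP-ctrl (62 counts), 0.29 in NP-IWP2 (15 counts) and 0.46 after passaging (23 counts). The NP-ctrl library of Day 10 was the only one above 1 FPKM. It was 10.2 times that of Day 7 (interval 4.42 to 28.8), and passaged cells were at 0.328 times NP-ctrl (0.194 to 0.537) on Day 10. Between passaged and NP-IWP2 cells on that day no difference was detectable at this depth (1.60, 0.798 to 3.29). GJA5 passed the filter on low values through the NP-ctrl library of Day 10 alone, so its fitted arm effect of passaged against NP-ctrl, -1.10 (SE 0.71, edgeR adjusted p = 0.455), is given as a description.

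**Figure D2:**
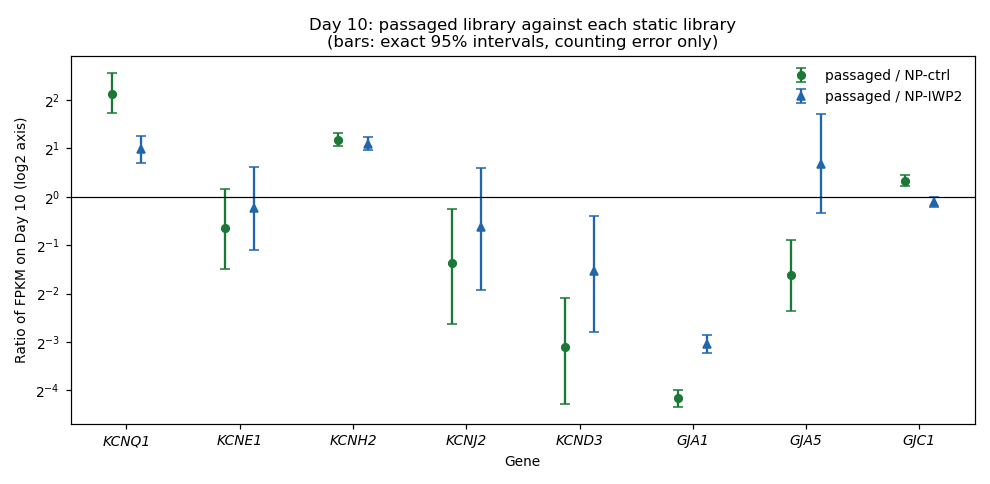
Ratio of the passaged FPKM to that of NP-ctrl (circles) and NP-IWP2 (triangles) on Day 10 for each of the 8 genes, on a log2 axis, with exact 95% intervals for counting error as bars and a line at 1. KCNQ1 and KCNH2 lay above 1 and KCND3 and GJA1 below 1 against both arms that were not passaged, with the lowest point at 0.056 for GJA1 against NP-ctrl.

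In the tests across the 4 days, 0 of the 6 fitted members were called for the arm effect in each of the 3 comparisons, against 4.45% of all genes for passaged against NP-ctrl, 1.34% for passaged against NP-IWP2 and 0.0189% for NP-IWP2 against NP-ctrl. KCNJ2 and GJA5 each entered the 6 through 1 library. At an unadjusted edgeR p under 0.05 the members numbered 4, 2 and 1, where 19.2%, 12.9% and 4.77% of all genes passed. DESeq2 called 4, 0 and 0 members, and 12%, 5.08% and 0.288% of the genes it gave an adjusted p. The 4 in passaged against NP-ctrl were KCNQ1, KCNH2 and GJC1 with positive effects and GJA1 with a negative one. For the slope on day, 0 of 6 were called in NP-ctrl, where 6.25% of all genes were, and 2 of 6 (KCNQ1 and GJA1) both in NP-IWP2, where 11.6% were, and in passaged cells, where 15.9% were. By edgeR 0 of 6 members were called for a difference in slope, against 0.166% of all genes for passaged against NP-ctrl, 0.00473% for passaged against NP-IWP2 and 0% for NP-IWP2 against NP-ctrl. Of these 3 differences, 2 members in passaged against NP-ctrl (KCNQ1 and GJA1) and 1 in passaged against NP-IWP2 (GJA1) had an unadjusted edgeR p under 0.05, as did 15.6% and 7.61% of all genes. DESeq2 called GJA1 in passaged against NP-ctrl, with 6.87% of the genes it gave an adjusted p. Between NP-IWP2 and NP-ctrl, where edgeR called 0 genes, 1204 genes (5.69%) had an unadjusted p under 0.05 and DESeq2 called 3.

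**Figure D3:**
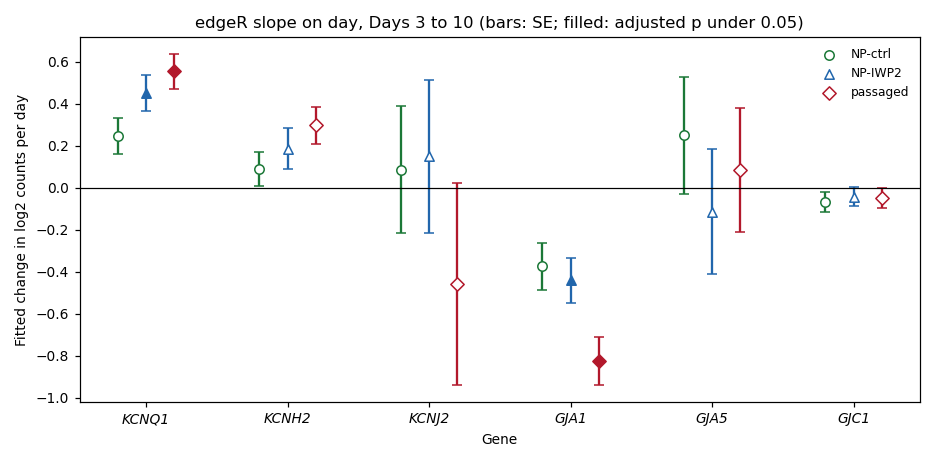
Fitted change in log2 counts per day over Days 3 to 10 for the 6 members tested, by arm, with SE as bars and filled points at an edgeR adjusted p under 0.05. KCNQ1 at 0.45 and 0.55 and GJA1 at -0.44 and -0.83 in NP-IWP2 and passaged cells are the filled points, and GJC1 stayed within 0.1 of 0 in the 3 arms.

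The balance between the connexins differed between the libraries. On Day 2 the level of GJC1 was 0.0367 times that of GJA1 (interval 0.0353 to 0.0381). On Day 7 it was 0.0818 times in NP-ctrl, 0.188 in NP-IWP2 and 0.308 after passaging. On Day 10 it was 0.0887 in NP-ctrl (0.0827 to 0.0952), 0.263 in NP-IWP2 (0.247 to 0.281) and 2.01 after passaging (1.76 to 2.29). On counts alone, without scaling by length, the Day 10 ratios were 0.228, 0.676 and 5.15. Passaged cells on Day 10 were the only library in which GJC1 exceeded GJA1, on either scale, and the order of the 3 arms on Days 7 and 10 was that of the GJA1 levels in reverse. The ratio of GJA5 to GJA1 on Day 10 was 0.0151 in NP-ctrl (0.0115 to 0.0193), 0.00672 in NP-IWP2 (0.00376 to 0.0111) and 0.0883 after passaging (0.055 to 0.135), where the denominator was lowest.

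**Figure D4:**
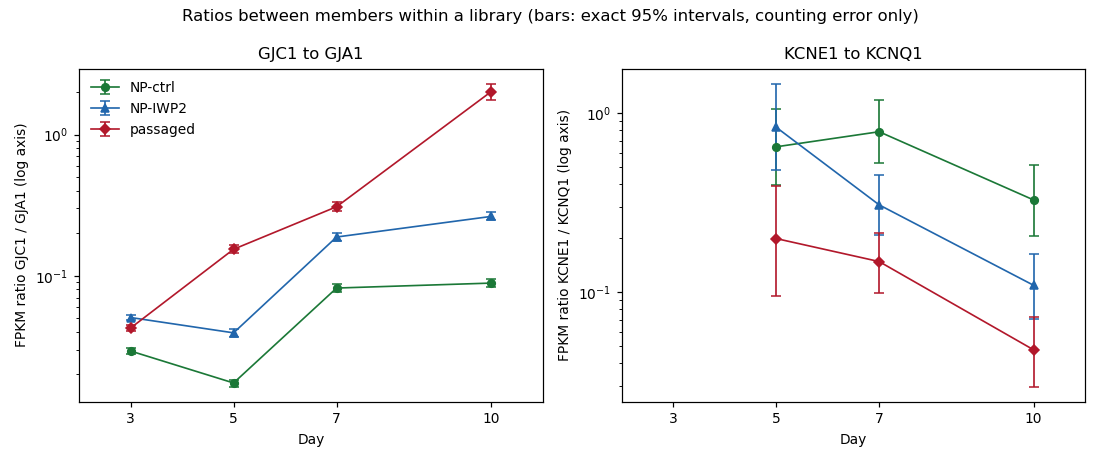
Ratio of FPKM of GJC1 to GJA1 (left) and of KCNE1 to KCNQ1 (right, Days 5 to 10) against day in each arm, on log axes, with exact 95% intervals for counting error as bars. On Day 10 the first ratio was 2.01 in passaged cells against 0.0887 in NP-ctrl, and the second was 0.0475 against 0.327.

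Over 18 connexin genes, the summed level was 446 FPKM on Day 2, and GJA1 made up 96.1% of it and GJC1 3.53%. By Day 10 the sum was 117 FPKM in NP-ctrl, 77.5 in NP-IWP2 and 62.9 after passaging. GJA1 made up 79.5%, 55.3% and 8.28% of it in these arms, and GJC1 7.06%, 14.6% and 16.6%. Most of the rest in NP-IWP2 and passaged cells was GJA3 (connexin 46), known for gap junctions of the lens. GJA3 was at most 0.23 FPKM in every library up to Day 5 and reached 7.88 FPKM in NP-ctrl, 20.5 in NP-IWP2 and 43.4 after passaging on Day 10, where it made up 6.73%, 26.4% and 69% of the sum. It was the first of the 18 in passaged cells on Day 10. GJA3 rose with day in the 3 arms, its slope being 1.41 in NP-ctrl, 1.32 in NP-IWP2 and 1.52 after passaging (edgeR adjusted p = 0.0177, 0.0113 and 0.00407), and it was higher in passaged than in NP-ctrl cells over the 4 days (2.90, SE 0.29, adjusted p = 0.000749).

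**Figure D5:**
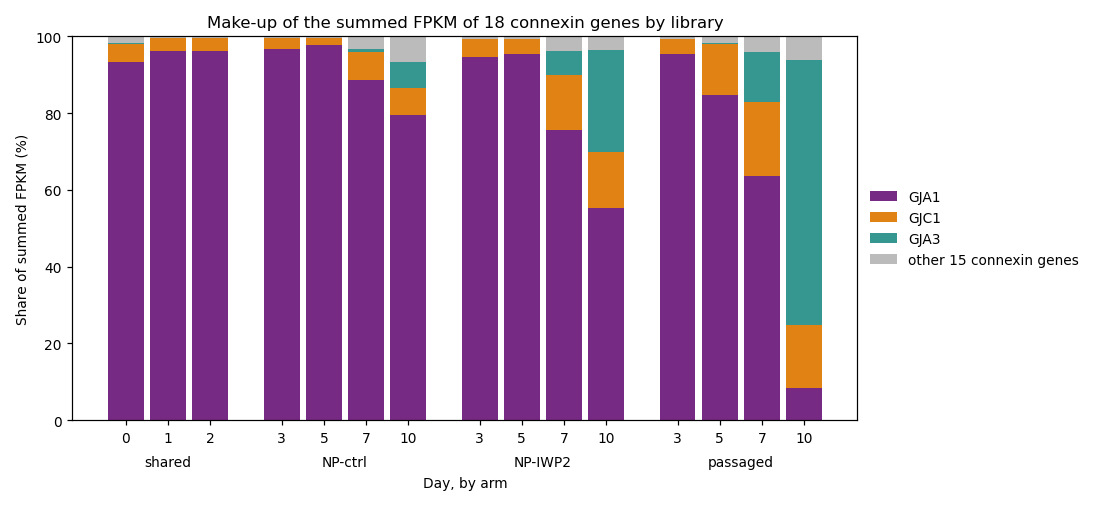
Share of the summed FPKM of 18 connexin genes (vertical axis, percent) held by GJA1, GJC1, GJA3 and the other 15 genes in each library, ordered by arm and day. GJA1 held over 93% in the shared libraries and 8.28% in passaged cells on Day 10, where GJA3 held 69%.

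Other genes of the same systems were compared from lists, as counts and medians. Of 28 other potassium channel genes, 20 were tested, and in passaged against NP-ctrl cells 1 was higher and 5 were lower, with a median effect of 0.21, where 1.65% of all genes tested were higher and 2.8% lower. KCNIP2, an accessory subunit of the Kv4 channels that carry Ito, was higher (2.34, SE 0.34, edgeR adjusted p = 0.00426) and was at 34.19 FPKM on Day 7 and 18.3 on Day 10 in passaged cells, against 3.40 and 4.13 in NP-ctrl and 14.91 and 17.36 in NP-IWP2. On Day 10 its interval for passaged against NP-IWP2 cells included 1 (1.05, 0.96 to 1.15), while the level of KCND3, a pore subunit of these channels, was 0.117 times NP-ctrl. KCNJ3 (GIRK1), a subunit of the acetylcholine-gated channel of atrial and nodal cells, had 0 counts in passaged cells on Day 10 against 868 in NP-ctrl. With 0 set to 3 counts it was 327-fold lower there, and its arm effect over the 4 days was called (edgeR adjusted p = 0.000156). KCNJ3 passed the filter on low values only through libraries of the arms that were not passaged, so this call is given as a description. KCNK6, a background channel of the K2P family, and KCNA5 (Kv1.5), an atrial channel, were also lower (-3.70, adjusted p = 0.00254, and -2.45, adjusted p = 0.029), and the other 2 of the 5 were KCNE4 and KCNK1. The KCNA5 level on Day 3 was 18.9 FPKM in NP-ctrl and 10.4 in passaged cells. For the slope on day in passaged cells, 5 of the 20 rose and 0 fell (KCNA7, KCNJ4, KCNJ5, KCNJ8 and KCNJ11), with a median of 0.05, where 7.61% of all genes rose and 8.34% fell.

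Of 12 sodium channel genes, 8 were tested and 0 were called in passaged against NP-ctrl cells, with a median effect of 0.07. Of 18 other connexin and pannexin genes, 8 were tested. GJA3 was higher and GJB1 (connexin 32), a connexin of hepatocytes, was lower (edgeR adjusted p = 0.000228), and the median was -0.36. GJB1 had 0 counts in passaged cells on Day 10 against 261 in NP-ctrl, 98.3-fold lower with 0 set to 3 counts. GJB1 also passed the filter on low values only through libraries of the arms that were not passaged, so its call is given as a description. Of 17 genes of the intercalated disc, the junction between heart muscle cells in which GJA1 sits, 16 were tested, with a median of 0.32. XIRP1 (Xin), a disc-associated actin-binding protein, was higher (3.12, adjusted p = 0.000875) and DSG2, the desmosomal cadherin desmoglein 2, was lower (-1.13, adjusted p = 0.0212). In NP-IWP2 cells 3 of the 16 slopes on day were called, all positive, where 11.6% of all genes were called in either direction. They were CDH2 (N-cadherin), CTNNA3 (alpha-T-catenin) and CXADR. In passaged cells 2 of the 16 were called (CDH2 and CTNNA3), both positive, where 15.9% of all genes were called and 7.61% rose. Over all genes tested, 4.45% were called in passaged against NP-ctrl cells, with a median effect of -0.004.

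Markers of several cell types differed between the same libraries. The summed level of 10 cardiomyocyte markers was at most 2.48 FPKM in the shared libraries and reached 643 FPKM in NP-ctrl, 2416 in NP-IWP2 and 4041 after passaging, and MYBPC3 had 0 counts in the shared libraries. The sum of 10 endoderm and liver markers reached 4142 FPKM in NP-ctrl and 1229 in NP-IWP2 on Day 10 and lay between 26.8 and 52.2 in passaged cells. The sum of 10 fibroblast and epicardial markers reached 4126, 1193 and 413 FPKM in the 3 arms. The sum of 10 endothelial markers ranged over Days 3 to 10 from 121 to 166 FPKM in NP-ctrl, from 107 to 126 with IWP2 and from 17.4 to 122 after passaging, lowest on Day 5. KDR, also a marker of early mesoderm, was the highest of these 10 in every library and made up 119 of the 122 FPKM in passaged cells on Day 10, where no other gene of the list reached 1 FPKM, against 4 genes at 1 FPKM or more in NP-ctrl and 8 in NP-IWP2. The 6 smooth muscle markers summed to at most 144, 234 and 587 FPKM, and the 8 pluripotency markers to 2151 FPKM on Day 0 and 46.3 to 66.4 FPKM on Day 10. KCNQ1, KCNH2 and GJA3 were thus highest, and GJA1, KCND3, GJA5 and KCNJ2 lower than in NP-ctrl, in the arm with the highest cardiomyocyte and the lowest endoderm, liver, fibroblast and epicardial marker sums on Day 10. GJC1 was above NP-ctrl there (1.26, interval 1.16 to 1.37), and the interval of KCNE1 included 1. GJA5 was lowest in NP-IWP2 and so did not follow the order of these sums. The part of cell composition in these differences was not tested.

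The genes whose course over the 15 libraries was most like that of each member but KCNE1 were taken from 13868 protein-coding genes by Pearson's r of log2(FPKM + 1), as a description. Points of these correlations share the same cultures and libraries. For KCNQ1 they were PPTC7, SLC25A4 and SYPL2 (r about 0.95 for each). For KCNH2 they were COMMD1, ATG4A and TMEM106C (0.922 to 0.967). For KCNJ2, whose course is decided by 1 library, they were KRT23, PAX1 and MEOX2 (0.959 to 0.979). For KCND3 they were SCIN, SERPINF2 and NPNT (0.945 to 0.954). For GJA1 they were CEP128, SLC37A4 and TTLL4 (0.945 to 0.958). The nearest genes of GJA5 (GRP, PRCD and SEC14L2, 0.808 to 0.821) and of GJC1 (NAP1L4, IL17RD and NARS2, 0.881 to 0.899) were less alike. Among the members, GJA1 had r of -0.84 with KCNQ1 and -0.83 with KCNH2, whereas KCNQ1 and KCNH2 had r of 0.57 with each other. KCNE1 and GJC1 had r of -0.88. That value is limited by KCNE1, which had at most 4 counts in each library of Days 0 to 3 and at most 0.62 FPKM later.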

How the data were processed

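Bulk RNA sequencing of 15 H1 libraries was analysed from 1 table of read counts and FPKM per gene. According to the submitters' processing notes and the study's methods, the authors trimmed reads with Cutadapt 1.9.1, aligned them to hg38 with Hisat2 2.0.1 and counted them per gene with HTSeq 0.6.1. The deposited counts are whole numbers. The deposited FPKM are these counts scaled to exon length in kilobases and to the library total, and recomputing them gave differences of at most 0.005. A long-read library kit is named beside these short-read tools, and the strand setting is not given in the sources used here. Of the identifiers, 60463 were matched to GENCODE 44, 93.7% of them with the same coordinates.

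Genes with at least 1 FPKM in at least 1 library (21206) were kept, and the 21148 with a count in Days 3 to 10 were tested with the quasi-likelihood test of edgeR 4.0.16 (R 4.3.3, TMM), with day as a factor for arm effects and 1 intercept and 1 slope per arm for slopes. The samples were grouped by arm and day from the labels. Nothing says that days came from separate cultures, so p-values measure only the spread between these libraries. SE are the effect divided by the square root of F. Ratios of single libraries used the Clopper-Pearson interval, a floor of 3 counts and no fold where both libraries were at or under it. Alternatives were limma 3.58.1 on log2(FPKM + 1), DESeq2 1.42.0, no filter, median-of-ratios scaling, each day left out, only the 2 arms compared, other library totals for ratios and KCNE1B added. The scripts were tested on simulated data.

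Named genes of other lists were those with the highest mean FPKM on Days 7 and 10, up to 4 per list, among genes called for passaged against NP-ctrl. The nearest patterns were the 3 protein-coding genes with the highest r, and those of KCNE1 are not reported here. CDH2, CTNNA3, CXADR and further called list genes are named from the counts of their lists. The members and lists were chosen with earlier results of these data known.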

Additional observations from a re-analysis of the deposited data

How the results depend on the processing

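Each day left out removes 1 library of each arm, and the cause of the changes was not tested. Of 450 member values in the fits, 397 kept direction and side of the threshold, 20 passed it in the same direction, 8 no longer passed it and 25 changed sign, none of these past the threshold in either fit. In passaged against NP-ctrl, members called went from 0 of 6 to 4 of 6 with DESeq2 (GJA1, GJC1, KCNH2 and KCNQ1). DESeq2 called 2150 of the 17868 genes with an adjusted p there. Without the filter 4 of 8 were called (GJA1, KCND3, KCNH2 and KCNQ1), where 2571 of 41457 genes were. In passaged against NP-IWP2 2 of 8 were called without the filter, where 1368 of 41457 genes were. Between the static (not passaged) arms 1 of 8 was called without the filter, where 372 of 41457 genes were. With only these 2 arms compared 1 of 6 was called, where 278 of 20987 genes were. With DESeq2 1 of 6 was called for the slope in NP-ctrl, where 3004 of the 21148 genes fitted were. It called 1 of 6 for the difference in slope of passaged and NP-ctrl cells, where 1086 of the 15818 genes with an adjusted p were. For the slope in NP-ctrl 1 of 8 was called without the filter, where 1515 of 41457 genes were. With a day left out, the members called ranged from 0 to 2 in passaged against NP-ctrl, with 2 without Day 3, where 2386 of 20943 genes were called. They ranged from 0 to 2 in the NP-IWP2 slope, with 2 without Day 5, where 1072 of 21055 genes were. In the passaged slope they ranged from 0 to 3, with 3 without Day 3, where 1633 of 20943 genes were. With a day left out, effects that changed sign ranged from -0.72 (without Day 5) to 1.86 for KCNJ2 in passaged against NP-ctrl, from -0.15 to 0.84 for GJA5 in passaged against NP-IWP2 and from -0.21 (without Day 5) to 0.53, with -0.03 without Day 7, for KCNH2 in NP-IWP2 against NP-ctrl. Slopes that changed sign ranged from -0.03 to 0.15 (KCNJ2) and -0.50 to 0.88 (GJA5) in NP-ctrl, from -0.01 to 0.45 (KCNH2), -0.07 to 0.42 (KCNJ2), -1.83 to 0.73 (GJA5) and -0.14 to 0.05 (GJC1) in NP-IWP2, and from -0.90 to 0.96 (KCNJ2, 0.46 without Day 5), -0.64 to 1.06 (GJA5) and -0.12 to 0.01 (GJC1) in passaged cells. Differences in slope ranged from -1.05 to 0.99 (KCNJ2, 0.39 without Day 5) and -0.18 to 0.18 (GJA5) for passaged against NP-ctrl, from -0.83 to 0.53 (KCNJ2, 0.21 without Day 5) and -0.05 to 0.02 (GJC1) for passaged against NP-IWP2, and from -0.22 to 0.45 (KCNJ2), -0.16 to 0.39 (KCNH2) and -0.01 to 0.06 (GJC1) for the static arms. With limma, GJC1 was at -0.02 in the difference of passaged and NP-ctrl slopes and KCNJ2 at -0.00 in that of the static arms. Of 282 ratios, 54 moved beyond their counting interval and 2 changed sides of 1, GJC1 in NP-IWP2 against NP-ctrl on Day 5 (0.966 on TPM) and in passaged against NP-IWP2 cells on Day 10 (1.07 with TMM). On Day 10 TMM shifted all ratios of passaged to NP-ctrl cells by 0.24 and TPM by -0.11 on the log2 scale. Genes called in passaged against NP-ctrl numbered 941, 207 with limma, 2150 with DESeq2, 2571 without the filter, 109 with only these arms and 140 to 2386 with a day left out. The counts in the same order were 283, 30, 886, 1368, 166 and 18 to 679 for passaged against NP-IWP2, and 4, 0, 61, 372, 278 and 0 to 35 for the static arms. Slopes called numbered 1321 in NP-ctrl (3004 with DESeq2, 100 to 464 with a day left out), 2444 in NP-IWP2 (4080, 290 to 1072) and 3373 in passaged cells (473 to 2522). Differences in slope called numbered 35 for passaged against NP-ctrl (1086 with DESeq2, 205 without the filter, 0 to 90 with a day left out), 1 for passaged against NP-IWP2 (211, 18, 0 to 4, and 2 with limma) and 0 for the static arms (3 with DESeq2). Arm effects compared the arms within days, with day as a factor, and each group of 1 arm and 1 day has 1 library, so there was no replicate number to block on. Depth limits KCNE1, KCND3, KCNJ2 and GJA5, which had at most 3 counts in 5, 6, 2 and 3 libraries.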
